A study of Homo sapiens with 6 samples.

Results

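The mitochondrially encoded genes are the genes carried by mitochondrial DNA. They were taken as all genes of GENCODE Release 44 whose symbol starts with MT-, matched by gene identifier to the deposited expression values. There were 37 of them among 62700 genes, of which 13 encode mRNAs, 2 encode ribosomal RNAs (rRNAs) and 22 encode transfer RNAs (tRNAs). Values above 0 were found for 15, the 13 mRNAs and the 2 rRNAs. The 22 tRNAs were listed at 0 in every library.

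Mitochondrial DNA is a small circular genome present in many copies per cell. Both of its strands are transcribed into long precursor RNAs, which are cut mainly at the tRNAs that lie between the other genes, and most of the released mRNAs and rRNAs then receive short poly(A) tails. The mRNAs encode subunits of the respiratory chain complexes I, III and IV and of ATP synthase, and the rRNAs form the core of the mitochondrial ribosome that translates them. All the proteins that copy, transcribe, cut and translate these RNAs are encoded in the nucleus.

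RNA-Seq was carried out on 6 libraries of SK-Hep1, a cell line derived from a human liver tumour. The paper describes the line as endothelial-derived. The 3 control libraries are titled shControl, whereas their genotype label is WT. The other 3 are titled shRAB30-DT and carry the genotype label RAB30-DT knockdown. RAB30-DT is a long non-coding RNA divergently transcribed next to RAB30, and the series was designed to compare cells with and without its knockdown. Per the methods, knockdown lines were made with lentiviral shRNA vectors and puromycin selection, so each group comes from stably transduced or parental cells of 1 cell line. The labels do not say whether the libraries of a group came from separate cultures, and p-values measure only the spread between these libraries, which may be technical. The titles number the knockdown libraries as replicates, whereas their columns are named sh1, sh2 and sh3 and the methods describe more than 1 shRNA against RAB30-DT, so their spread may include a difference between shRNAs. The methods also describe control vectors. The genotype label WT leaves it unsettled whether the control libraries carry one, and if they do not, transduction and selection cannot be told apart from the knockdown. In bulk RNA, a change in the number of mitochondrial DNA copies per cell and a change in RNA per copy cannot be told apart.

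All values are TPM, a transcript level per unit of gene length that sums to the same total in every library. Read numbers are not kept in TPM, so sequencing depth is unknown and the precision rests on the replicates. Between 20127 and 21675 genes were above 0 TPM in a library. RAB30-DT itself was at 18.16, 11.51 and 13.91 TPM in control replicates 1, 2 and 3, and knockdown replicates 1, 2 and 3 had 11.94, 10.85 and 6.5 TPM. The groups overlapped, and the difference did not pass the test (log2 fold change −0.55, standard error 0.27, limma adjusted p = 0.355), so each comparison here is between the libraries as labelled. The paper reports a separate check of the knockdown in SK-Hep-1 cells by quantitative PCR. Whether that check used the RNA of these libraries is not stated. The hepatocyte markers ALB, APOB, TTR and HNF4A were at 0 TPM in all libraries, and the 6 hepatocyte markers summed to between 18.1 and 24.0 TPM in control and between 28.2 and 37.2 TPM in knockdown libraries, nearly all of it SERPINA1. The 5 endothelial markers summed to at most 0.38 TPM, and epithelial and leukocyte markers to at most 0.18 TPM. The 3 mesenchymal markers went different ways. VIM was at 3793 to 3997 TPM in control and 4336 to 4784 TPM in knockdown libraries, THY1 at 102 to 148 TPM and 76.0 to 98.7 TPM, and COL1A1 at 0.59 to 2.41 TPM in all libraries. The part of these marker differences in the mitochondrial values was not tested.

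The genes lie almost end to end on chromosome M of hg38, and 3 features of the sequence bear on how a read is assigned to one of them. A tRNA often stands between a pair of longer genes. The stretch from the end of MT-RNR2, the large rRNA, through the tRNA MT-TL1 to the start of MT-ND1 is chrM:3210-3326 on the plus strand, shown with the 75 bases of the tRNA in capitals. These letters are the punctuation at which the precursor is cut.
MT-RNR2/MT-TL1/MT-ND1: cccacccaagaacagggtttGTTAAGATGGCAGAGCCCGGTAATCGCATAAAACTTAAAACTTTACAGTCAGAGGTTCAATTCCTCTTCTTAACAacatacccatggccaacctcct
Next, 2 pairs of reading frames share bases and remain on 1 mRNA each. MT-ATP8 and MT-ATP6 share 46 bases (shown within chrM:8515-8584, plus strand), and MT-ND4L and MT-ND4 share 7 bases (shown within chrM:10748-10778, plus strand). The shared bases are in capitals, and they start with the start codon of the downstream frame and end with the stop codon of the upstream one.
MT-ATP8/MT-ATP6: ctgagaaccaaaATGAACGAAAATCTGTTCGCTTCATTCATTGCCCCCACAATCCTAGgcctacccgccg
MT-ND4L/MT-ND4: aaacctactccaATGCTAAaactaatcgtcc
Last, 12 of the 13 mRNAs, both rRNAs and 14 tRNAs read as the plus strand, and MT-ND6 with 8 tRNAs reads as the minus strand. MT-ND6 ends where MT-ND5 ends on the opposite strand, and its start, chrM:14644-14673 on the minus strand, is shown with the start codon in capitals.
MT-ND6 start: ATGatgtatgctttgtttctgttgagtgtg
The preparation steps given in the labels include none that marks strand, so reads of MT-ND6 cannot be told apart from those of plus-strand RNA that runs antisense to it.

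Mitochondrial transcripts were among the most abundant of these cells. By mean TPM over the 6 libraries, 6 of the 10 highest genes, 10 of the 20 highest and 14 of the 100 highest were mitochondrially encoded. The 37 genes together held 10.6%, 8.75% and 9.34% of total TPM in control replicates 1, 2 and 3, against 11.1%, 9.50% and 8.80% in the knockdown replicates in the same order. The groups overlapped throughout, with means of 9.57% ± 0.949 in control and 9.81% ± 1.19 in knockdown cells (SD, n = 3 each, exact two-sided permutation test, p = 0.7). With 3 libraries against 3, the smallest p such a test allows is 0.1.

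Nearly all of this share was mRNA. The 13 mRNAs held between 8.40% and 10.1% of total TPM in control libraries and between 8.33% and 10.4% in knockdown libraries (means 9.16% ± 0.832 and 9.20% ± 1.06, SD, n = 3 each, exact permutation p = 1). The 7 mRNAs of complex I, the NADH dehydrogenase, held 3.26% in control and 3.28% in knockdown libraries on average. The 3 mRNAs of complex IV, cytochrome c oxidase, held 3.27% and 3.54%, and the 2 of ATP synthase held 2.13% and 1.85%. The single mRNA of complex III, MT-CYB, held 0.506% and 0.535%. Each of these shares overlapped between the groups, and the smallest exact permutation p among them was 0.3. The direction of the difference in the total and in the mRNA share turned when single libraries were left out. The total differed by −0.17 percentage points without control replicate 2 and by −0.42 without knockdown replicate 1, against 0.24 with all libraries. The difference of the mRNA share, 0.04 with all libraries, was −0.34 without control replicate 2, −0.02 without control replicate 3 and −0.55 without knockdown replicate 1.

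**Figure D1:**
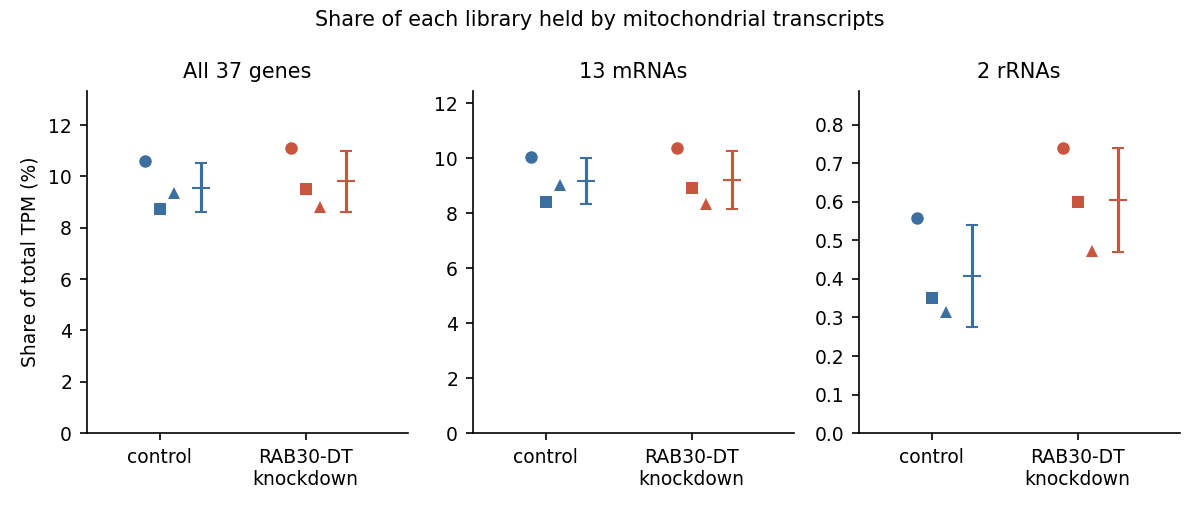
Share of total TPM (%, linear axes from 0) held by all 37 mitochondrially encoded genes, the 13 mRNAs and the 2 rRNAs in each library. Circles, squares and triangles are replicates 1, 2 and 3, and the bars beside them give mean ± SD (n = 3): total and mRNA shares lie at the same height in both groups, whereas the rRNA share had means of 0.407% in control and 0.604% in knockdown libraries, with 1 control library inside the knockdown range.

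The largest difference among the members was in an rRNA. MT-RNR2 (ENSG00000210082.2, positions 1671 to 3229, 1559 bases), which encodes the rRNA of the large mitochondrial ribosomal subunit, was at 3826, 2441 and 2112 TPM in control replicates 1, 2 and 3, against 5647, 4533.5 and 3617 TPM in the knockdown replicates in the same order. In 2 control libraries it was below every knockdown library, and control replicate 1 was above knockdown replicate 3. Its log2 fold change was 0.74 (standard error 0.24, 95% interval 0.19 to 1.29), a 1.67-fold higher level, and did not pass the test over all genes (limma adjusted p = 0.177).

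MT-RNR1 (ENSG00000211459.2, positions 648 to 1601, 954 bases), the rRNA of the small subunit, lies upstream of MT-RNR2 in the same precursor. It was at 1749, 1056 and 1028 TPM in control and at 1755, 1469 and 1093 TPM in knockdown replicates 1, 2 and 3. The groups overlapped, and its log2 fold change was 0.19 (standard error 0.24, limma adjusted p = 0.734). The value rested on single libraries, as it was 0.03 without knockdown replicate 1 and 0.44 without control replicate 1. Together the 2 rRNAs held 0.558%, 0.350% and 0.314% of total TPM in control and 0.740%, 0.600% and 0.471% in knockdown libraries (exact permutation p = 0.2).

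The ratio of the 2 rRNAs within a library, which does not depend on the total, separated the groups. MT-RNR2 was 2.19, 2.31 and 2.06 times MT-RNR1 in control replicates 1, 2 and 3, against 3.22, 3.09 and 3.31 times in the knockdown replicates in the same order. No control library reached a knockdown library, and the gap between the groups was wider than the range within either. The ratio was 1.47-fold higher in knockdown libraries (log2 difference 0.55, exact permutation p = 0.1, the smallest possible, adjusted p = 0.2 over the 6 ratios tested). The summed rRNAs over the summed mRNAs were at 0.0555, 0.0416 and 0.0348 in control and at 0.0713, 0.0675 and 0.0565 in knockdown libraries, also without overlap (log2 difference 0.59, exact permutation p = 0.1, adjusted p = 0.2). Against the mean of the 13 mRNAs, a ratio chosen after the values were seen, MT-RNR2 was at 0.495, 0.378 and 0.304 in control and at 0.707, 0.662 and 0.564 in knockdown libraries, again without overlap. MT-RNR1 over the same mean overlapped, at 0.148 to 0.226 in control and 0.170 to 0.220 in knockdown libraries.

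The call of MT-RNR2 depended on the fit. It passed in 4 of 19 fits. The limma adjusted p was 0.0330 without control replicate 1 (log2 fold change 0.99) and 0.0314 with each library's trend along GC content removed. The adjusted p was 0.0228 with same-numbered libraries taken as blocks and 0.00530 with libraries weighted by limma's arrayWeights. In the 15 fits in which it did not pass it had log2 fold changes from 0.45 under quantile normalization to 0.90 without knockdown replicate 3. No listed nuclear copy of either rRNA had a mean of at least 1 TPM.

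The libraries were selected with poly-T beads and mitochondrial rRNAs carry only short tails, so 8 nuclear RNAs without a poly(A) tail were read beside them. These 8 were chosen after the values of the rRNAs were seen. Their TPM summed to 1469, 3432 and 3093 in control and to 659, 1197 and 1532 in knockdown replicates 1, 2 and 3. Of the 8, 5 had a lower and 3 a higher mean log2 level in knockdown libraries, and 0 were called by limma. RN7SK, the RNA that holds the elongation factor P-TEFb inactive, was at 41.4 to 106 TPM in control and at 0 to 14.8 TPM in knockdown libraries. RN7SL1, an RNA of the signal recognition particle, was at 697 to 1434 TPM and at 314 to 677 TPM. RMRP, the RNA of RNase MRP, was at 7.46 to 31.1 TPM and at 0 to 2.67 TPM. These 3 RNAs were lower in every knockdown library than in any control library, with limma adjusted p of 0.124, 0.162 and 0.0800. The same separation held for 13.4% of the 14020 genes tested. The 2 other lower ones, RN7SL2 and RPPH1, overlapped. The 3 higher ones, RNA5-8SN1, RNA5-8SN2 and RNA5-8SN3, are copies of 1 cytosolic rRNA that were listed with the same values. RN7SL1 has many copies in the genome that share reads, so its level is uncertain, and the part of tail selection in the rRNA values was not tested.

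**Figure D2:**
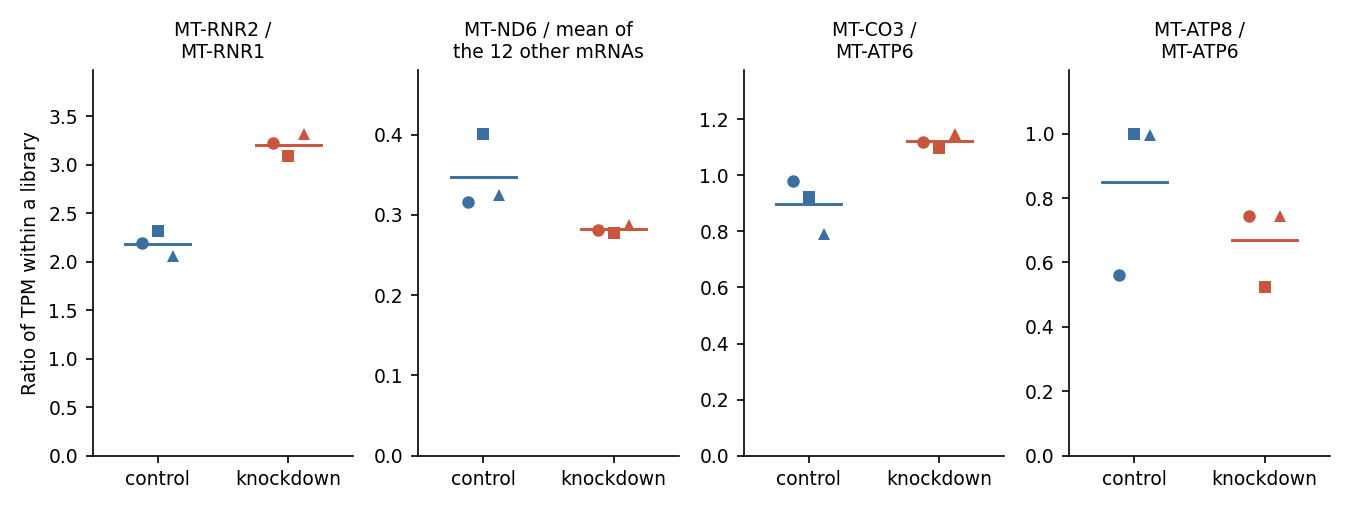
Ratios of TPM within each library (linear axes from 0) for MT-RNR2 over MT-RNR1, MT-ND6 over the mean of the 12 other mRNAs, MT-CO3 over MT-ATP6 and MT-ATP8 over MT-ATP6. Circles, squares and triangles are replicates 1, 2 and 3 and lines are group means (n = 3): the first 3 ratios do not overlap between the groups, with 2.06 to 2.31 in control and 3.09 to 3.31 in knockdown libraries for MT-RNR2 over MT-RNR1, whereas the last does overlap. MT-CO3 over MT-ATP6 was chosen after the values were seen, so its separation is a description only.

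Over the whole table, 146 of 14020 genes tested (1.04%) were called at an adjusted p under 0.05, of which 52 (0.371%) were higher and 94 (0.670%) lower in knockdown cells. This split was 68 higher and 68 lower with median-of-ratios scaling, and 78 and 83 with quantile normalization. Of the 15 mitochondrial genes tested, 0 were called. An unadjusted limma p under 0.05 was found for 2 (13.3%), MT-RNR2 and MT-ND6, against 16.8% of all genes tested. With arrayWeights, a fit that rests mainly on replicate 2 of each group, 6 were called, MT-RNR2, MT-CO3, MT-ND1 and MT-ND2 as higher and MT-ND6 and MT-ATP8 as lower, where 3218 of all genes were called. There were 10 with a higher and 5 with a lower mean log2 level in knockdown cells. Their median log2 fold change was 0.04, against −0.04 for all genes tested. Under quantile normalization 5 were higher and 10 lower, with a median of −0.16, so the direction of the group as a whole depended on the scaling. In none of the 15 were all knockdown libraries on the same side of all control libraries, which held for 9.89% of the genes tested in the higher and for 13.4% in the lower direction.

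**Figure D3:**
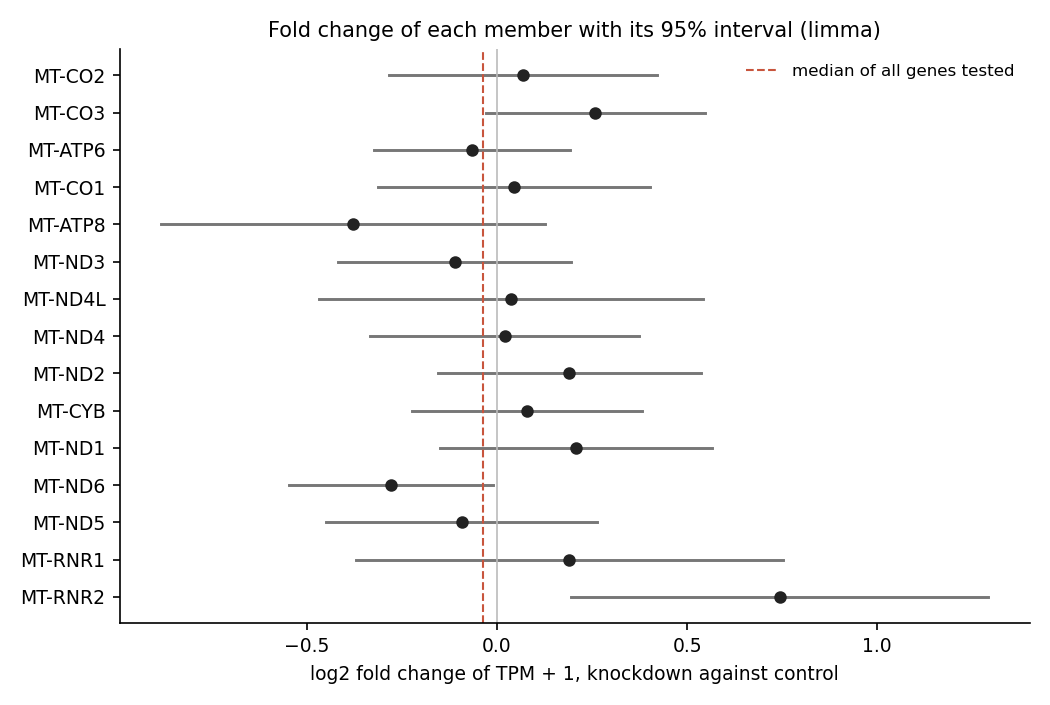
Log2 fold change of TPM + 1 in knockdown against control cells for the 15 mitochondrially encoded genes above 0 TPM, with 95% intervals from limma (n = 3 per group). The dashed line is the median of all genes tested, −0.04: the 13 mRNAs lie between −0.38 and 0.26, and the interval of MT-RNR2 runs from 0.19 to 1.29.

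In the limma fit without further scaling, the 13 mRNAs differed little between the groups. Their log2 fold changes ran from −0.38 to 0.26 with a median of 0.04, and the 95% intervals of 12 of the 13 lay within a 1.5-fold change in either direction. The exception was MT-ATP8, whose interval reached down to 0.542 of the control level. The intervals of 12 of the 13 held 0, and that of MT-ND6 ran from −0.55 to −0.01. Under quantile normalization MT-ND6 and MT-ATP8 each had a log2 fold change of −0.53, and neither was called.

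The complex IV subunits were among the most abundant. MT-CO1 (positions 5904 to 7445), whose protein holds the site where oxygen is reduced, was at 12779, 10578 and 8685 TPM in control and at 12412.5, 10913 and 9499 TPM in knockdown replicates 1, 2 and 3 (log2 fold change 0.04). MT-CO2 (positions 7586 to 8269), whose protein receives electrons from cytochrome c, was at 13997, 9752 and 11003 TPM and at 13847, 11941 and 10471 TPM (log2 fold change 0.07). For these 2 mRNAs the range of the knockdown libraries lay within that of the control libraries.

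MT-CO3 (ENSG00000198938.2, positions 9207 to 9990), the core subunit without a redox centre, was at 12245, 9508 and 9449.8 TPM in control and at 13645, 12217 and 11302 TPM in knockdown replicates 1, 2 and 3. Only control replicate 1 reached into the knockdown range. The means were 10401 ± 1597 and 12388 ± 1181 TPM (SD, n = 3 each), and the difference did not pass the test (log2 fold change 0.26, standard error 0.13, limma adjusted p = 0.345).

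For complex III, MT-CYB (positions 14747 to 15887) encodes cytochrome b, the only subunit of that complex from mitochondrial DNA. It was at 5576, 4442 and 5151 TPM in control and at 6066, 5347 and 4636 TPM in knockdown libraries (log2 fold change 0.08), with overlap.

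The complex I mRNAs on the plus strand encode membrane subunits of the proton-pumping arm. MT-ND1 (positions 3307 to 4262) was at 4451, 3419.9 and 4913 TPM in control and at 5601, 4665 and 4411 TPM in knockdown replicates 1, 2 and 3 (log2 fold change 0.21). MT-ND2 (positions 4470 to 5511) was at 5708, 4146 and 5034 TPM and at 6582, 5447 and 4935 TPM (log2 fold change 0.19). Both had a higher mean in knockdown cells, a direction that turned under quantile normalization (log2 fold changes −0.11 and −0.10), and in both a control library lay above the lowest knockdown library. MT-ND3 (positions 10059 to 10404) was at 5619.9, 7275 and 7281 TPM in control and at 6434, 5456 and 6721 TPM in knockdown replicates 1, 2 and 3 (log2 fold change −0.11). MT-ND5 (positions 12337 to 14148) was at 2795, 2129.8 and 2056 TPM and at 2410.45, 2249.9 and 1861 TPM (log2 fold change −0.09). The groups overlapped for both, and MT-ND5 was the lowest mRNA by mean level.

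MT-ND4L (positions 10470 to 10766) and MT-ND4 (positions 10760 to 12137) share the 7 bases shown above and are read from 1 mRNA. MT-ND4L was at 8402, 4376 and 5183 TPM in control and at 6484, 5885 and 5386 TPM in knockdown replicates 1, 2 and 3 (log2 fold change 0.04). MT-ND4 was at 6873, 5096 and 5351 TPM and at 6724, 5911 and 4915 TPM (log2 fold change 0.02). Their ratio was close to 1 in most libraries, at 0.859 to 1.22 in control and 0.964 to 1.10 in knockdown libraries, and control replicate 1 had the highest.

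MT-ND6 (ENSG00000198695.2, positions 14149 to 14673, minus strand), the one mRNA read from the opposite strand and known to lack a stable poly(A) tail, was at 2584, 2712 and 2377 TPM in control and at 2378, 2011 and 1949.8 TPM in knockdown replicates 1, 2 and 3. The groups met at control replicate 3 and knockdown replicate 1, which differed by less than 1 TPM. The means were 2558 ± 169 and 2113 ± 231 TPM (SD, n = 3 each), with a log2 fold change of −0.28 (standard error 0.12, limma adjusted p = 0.279). Over the mean of the 12 other mRNAs of its own library, MT-ND6 was at 0.317, 0.400 and 0.324 in control and at 0.281, 0.277 and 0.288 in knockdown libraries. These ratios did not overlap (log2 difference −0.29, exact permutation p = 0.1, adjusted p = 0.2 over the 6 ratios), and control replicate 2 stood above the others. Without it the log2 difference was −0.18, and it was between −0.35 and −0.28 without any other single library.

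ATP synthase takes 2 subunits from mitochondrial DNA, both read from 1 mRNA through the 46 shared bases shown above. MT-ATP6 (positions 8527 to 9207), the subunit that forms the proton channel, was at 12489, 10305 and 11927 TPM in control and at 12192, 11119 and 9865 TPM in knockdown replicates 1, 2 and 3 (log2 fold change −0.07). MT-ATP8 (ENSG00000228253.1, positions 8366 to 8572), a small subunit of the membrane part, was at 6989.9, 10279 and 11891 TPM and at 9066, 5829 and 7354 TPM. The groups of MT-ATP8 overlapped because control replicate 1 was far below the other control libraries (log2 fold change −0.38, standard error 0.22, limma adjusted p = 0.426). The log2 fold change was −0.60 without control replicate 1 and −0.22 without control replicate 3 or knockdown replicate 2.

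Although they stand on 1 mRNA, MT-ATP8 and MT-ATP6 did not keep 1 ratio. MT-ATP8 was 0.560, 0.997 and 0.997 of MT-ATP6 in control replicates 1, 2 and 3, compared with 0.744, 0.524 and 0.746 in the knockdown replicates (exact permutation p = 0.3). MT-CO3 over MT-ATP6, genes that share 1 base and adjoin in the precursor, was a ratio chosen after the values were seen. It was 0.980, 0.923 and 0.792 in control and 1.12, 1.10 and 1.15 in knockdown libraries, without overlap (1.25-fold higher in knockdown libraries, exact permutation p = 0.1). The summed complex IV over the summed complex I mRNAs overlapped, at 0.905 to 1.07 in control and 1.04 to 1.11 in knockdown libraries (log2 difference 0.11, exact permutation p = 0.2, adjusted p = 0.3). Adding the TPM of the listed nuclear copies to their parents left the log2 difference of MT-CO3 over MT-ATP6 at 0.33.

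**Figure D4:**
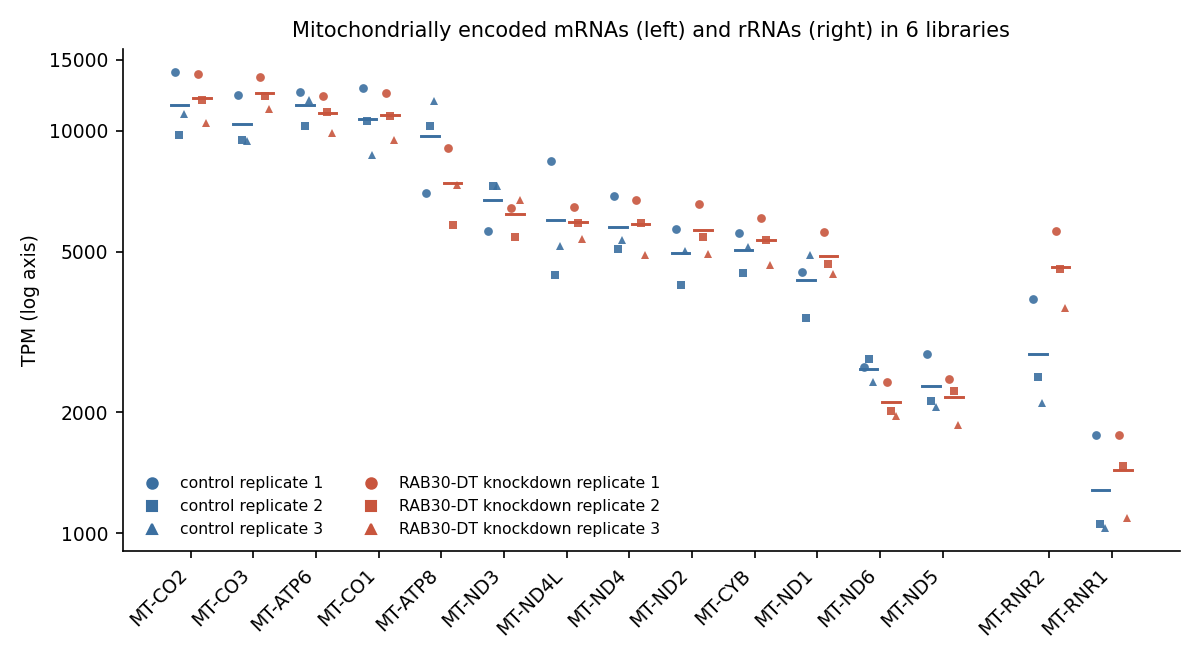
TPM (log axis) of the 13 mitochondrial mRNAs in order of their mean log2 level, and of the 2 rRNAs, in each of the 6 libraries. Circles, squares and triangles are replicates 1, 2 and 3 and lines are group means (n = 3): the mRNAs run from 13997 TPM for MT-CO2 in control replicate 1 down to 1861 TPM for MT-ND5 in knockdown replicate 3, and replicate 1 is often the highest of its group.

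Most members were highest in the same replicate of each group. Replicate 1 was the highest of the 3 control libraries for 11 of the 15 genes, and knockdown replicate 1 was the highest of its group for 14 of 15. The same libraries stood apart in base composition. The Spearman correlation, across all genes tested, of a library's deviation from the mean log2 level with the GC content of the gene was −0.595, 0.292 and 0.483 in control replicates 1, 2 and 3, against −0.518, 0.0165 and 0.324 in the knockdown replicates. The 13 mRNAs have a GC content of 39.6% to 47.7%. With this trend removed, the log2 fold change was 0.73 for MT-RNR2, 0.26 for MT-CO3, −0.29 for MT-ND6 and −0.41 for MT-ATP8, each close to its value without the removal. How far the trend sets the higher level in replicate 1 was not tested. The share of all genes that were highest in replicate 1 was not counted, so this trait is not shown to be particular to the members.

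By mean log2 level, the order of the 13 mRNAs from high to low was MT-CO2, MT-CO3, MT-ATP6, MT-CO1, MT-ATP8, MT-ND3, MT-ND4L, MT-ND4, MT-ND2, MT-CYB, MT-ND1, MT-ND6 and MT-ND5. TPM are scaled for length, so levels of different genes are compared here per length. MT-ATP8, MT-ND4L and MT-ND3 are shorter than the fragments selected in library preparation, 370 to 420 bases per the labels. MT-ND6 is known to lack a stable poly(A) tail, and its reads cannot be told apart from antisense ones. The part of these limits in the order was not tested. The order was broadly kept between libraries, with Spearman correlations over the 13 mRNAs of 0.841 to 0.951 within groups and 0.808 to 0.951 between them, as a description of libraries that share these genes and their base composition. MT-CO2, MT-CO3, MT-ATP6 and MT-CO1 took ranks between 1 and 5 in every library. MT-ND1 ranked 11 in all 6, and MT-ND6 and MT-ND5 took ranks 12 and 13.

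No neighbours in the order passed the test. Of the 12 neighbouring pairs, 3 had the same direction in 6 of 6 libraries: MT-ATP8 over MT-ND3 (mean log2 difference 0.37 ± 0.24), MT-CYB over MT-ND1 (0.19 ± 0.13) and MT-ND1 over MT-ND6 (0.97 ± 0.35, SD, n = 6 each). Each gave p = 0.03125 in an exact sign-flip permutation test, the smallest that 6 libraries allow, and an adjusted p of 0.125 over the 12 pairs. The other 9 pairs changed direction in at least 1 library, so that, for example, MT-CO2 and MT-CO3 (0.05 ± 0.13) or MT-ND6 and MT-ND5 (0.06 ± 0.20) did not differ beyond their spread. MT-CO3 ranked 4, 5 and 4 in control and 2, 1 and 1 in knockdown replicates 1, 2 and 3.

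The make-up of the mRNA pool was read as the share of each mRNA in the summed TPM of the 13. For 3 of the 13 the groups did not overlap. Of all genes tested, TPM did not overlap for 9.89% in the higher and for 13.4% in the lower direction, so the count is not read as particular to the mRNAs. MT-CO3 made up 12.2%, 11.3% and 10.5% of the pool in control and 13.1%, 13.7% and 13.6% in knockdown replicates 1, 2 and 3. MT-ND2 made up 5.68%, 4.93% and 5.57% in control and 6.34%, 6.12% and 5.92% in knockdown libraries. MT-ND6 made up 2.57%, 3.23% and 2.63% and 2.29%, 2.26% and 2.34%. Each gave an exact permutation p of 0.1, the smallest possible, and an adjusted p of 0.433 over the 13 shares. No share could reach a threshold of 0.05 in this test, whatever its values.

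Over the 6 libraries of both groups, the shares of the shortest mRNAs varied most. Within the knockdown group this did not hold for each of them. There, MT-ATP8 made up 6.55% to 8.83% of the pool and MT-ND3 6.13% to 8.07%. MT-ND4L made up 6.24% to 6.61% and MT-ND6 2.26% to 2.34%. The highest share over the lowest in the 6 libraries was 2.01 for MT-ATP8 (207 bases), 1.60 for MT-ND4L (297 bases), 1.55 for MT-ND3 (346 bases) and 1.43 for MT-ND6 (525 bases), and at most 1.34 for the other 9 mRNAs, which are 681 bases or longer. The first 3 of these are shorter than the fragments selected in library preparation, 370 to 420 bases per the labels. Across the 13 mRNAs, Spearman's correlation of this spread with length was −0.599 and with GC content −0.462, given as a description over genes that share 6 libraries. MT-ATP8, which did not keep its ratio to MT-ATP6, is the shortest of these genes, and the part of gene length in that was not tested.

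**Figure D5:**
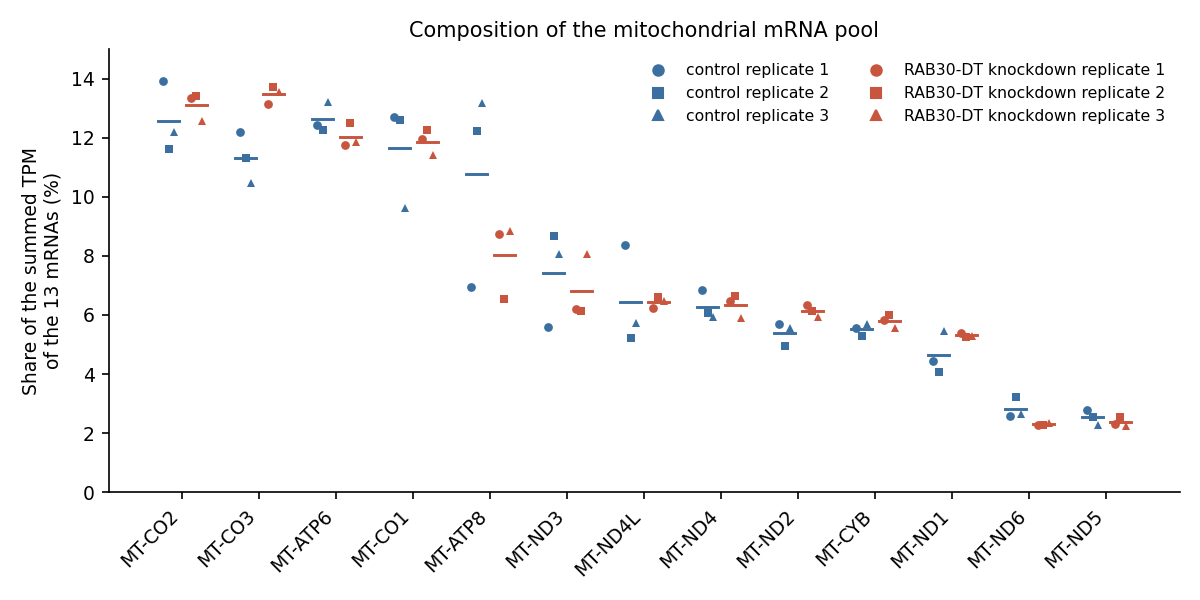
Share (%, linear axis from 0) of each mitochondrial mRNA in the summed TPM of the 13 mRNAs, per library. Circles, squares and triangles are replicates 1, 2 and 3 and lines are group means (n = 3): MT-CO3 has means of 11.3% in control and 13.5% in knockdown libraries without overlap, while MT-ATP8 is spread from 6.55% to 13.2% over all libraries.

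The 22 tRNAs carry the amino acids for translation inside the mitochondrion and are 59 to 75 bases long. Each was listed at 0 TPM in all 6 libraries. In the same files, 0 of the 5661 genes of at most 120 bases had a value above 0 in any library, and the shortest gene with a value was 121 bases long. The zeros of the tRNAs are therefore shared with every gene of their length, nuclear or mitochondrial, and give no level for the mature tRNAs.

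Copies of mitochondrial DNA in the nuclear genome can take reads from, or give reads to, these genes. Of 404 such copies in the annotation, 50 were above 0 TPM in a library and 5 had a mean of at least 1 TPM. The highest was MTATP6P1 (chromosome 1, 633696 to 634376, plus strand), 98.5% identical to MT-ATP6 over 681 bases, with a mean of 635 TPM. It was at 760, 455 and 822 TPM in control and at 671, 595 and 506 TPM in knockdown replicates 1, 2 and 3, so that it followed neither group. MTCO1P12, 98.7% identical to MT-CO1, had a mean of 87.8 TPM, and MTND2P28, 98.4% identical to MT-ND2, one of 11.7 TPM. MTND2P28 was at 14.7, 11.9 and 14.4 TPM in control and at 9.20, 11.3 and 8.98 TPM in knockdown libraries, without overlap and not called (log2 fold change −0.44, limma adjusted p = 0.304), while its parent had a higher mean in knockdown cells. MTND1P23 and MTND4P12 had means of 4.52 and 2.44 TPM. At such identity the split of reads between copy and parent is uncertain.

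Finally, the nuclear genes that serve mitochondrial gene expression were read from 10 lists. Of 127 listed genes 126 were tested, and 0 were called by limma (20, or 15.9%, with arrayWeights, where 23.0% of all genes were called), with 11 (8.73%) at an unadjusted p under 0.05 against 2350 of all genes tested (16.8%). The mean log2 level in knockdown cells was higher for 52 and lower for 74, and the median log2 fold change was −0.07, compared with −0.04 over all genes. Quantile normalization turned this to 68 higher and 58 lower, so the lists have no direction that holds under every scaling. All knockdown libraries were above all control libraries for 5 (3.97%) and below them for 18 (14.3%), shares that stand beside 9.89% and 13.4% of all genes tested. Values are given below for the genes with the smallest p in each list.

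Among 19 genes of mitochondrial DNA transcription and replication, 5 had a higher and 14 a lower mean log2 level in knockdown cells, and 7 and 12 under quantile normalization. MGME1, an exonuclease that trims the ends of mitochondrial DNA, was at 54.0, 46.5 and 43.7 TPM in control and at 31.2, 25.8 and 23.7 TPM in knockdown replicates 1, 2 and 3. It had the smallest adjusted p of the lists and did not pass (log2 fold change −0.82, standard error 0.18, limma adjusted p = 0.0822). MTERF4, a factor needed for assembly of the mitochondrial ribosome, had means of 21.9 and 28.5 TPM (log2 fold change 0.36), and DNA2, a nuclease and helicase, 18.6 and 11.9 TPM (log2 fold change −0.62).

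Of 28 genes for cleavage and modification of mitochondrial RNA, 14 were higher and 14 lower, and the median log2 fold change was 0.02. PUS1, a pseudouridine synthase, had means of 66.3 and 43.9 TPM, NSUN3, a tRNA methyltransferase, 6.41 and 3.67 TPM, and TBRG4, an RNA-binding protein of the FASTK family, 106 and 75.7 TPM. The lowest of their adjusted p was 0.298.

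LRPPRC and SLIRP bind and stabilise mitochondrial mRNAs as a complex. Their mean differences had opposite signs. SLIRP was at 215, 314 and 274 TPM in control and at 209.7, 177 and 201 TPM in knockdown libraries, without overlap (log2 fold change −0.43, limma adjusted p = 0.260). LRPPRC was at 164, 116 and 106 TPM and at 181, 159 and 125 TPM (log2 fold change 0.27, adjusted p = 0.562). PNPT1, the mitochondrial polynucleotide phosphorylase, had means of 36.4 and 27.0 TPM. Of the 6 genes of RNA stability and decay, 3 were higher and 3 lower.

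Of 12 translation factors, 7 were higher and 5 lower, led by MTIF3, an initiation factor (28.2 and 38.5 TPM, log2 fold change 0.47), GFM1, an elongation factor (32.4 and 24.1 TPM, −0.36), and MRRF, a ribosome recycling factor (44.03 and 54.3 TPM, 0.32). Of 20 enzymes that charge mitochondrial tRNAs, 9 were higher and 11 lower. PARS2, for proline, was at 2.55 to 4.01 TPM in control and 5.87 to 6.24 TPM in knockdown libraries (log2 fold change 0.74, limma adjusted p = 0.158). RARS2, for arginine, was at 20.1 to 24.4 TPM and 14.6 to 16.1 TPM (−0.53, adjusted p = 0.185), and SARS2, for serine, at 17.9 to 35.6 TPM and 12.4 to 16.6 TPM (−0.75, adjusted p = 0.207). Each of these 3 was without overlap, in both directions within 1 list. Of all 20 enzymes, 3 were higher and 6 lower in every knockdown library than in any control library. The shares over all genes tested were 9.89% and 13.4%. Of 6 regulators of mitochondrial biogenesis 5 were tested, 2 higher and 3 lower, and NRF1, GABPA and PPRC1 had log2 fold changes of −0.32, 0.47 and −0.35.

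The mitochondrial subunits assemble with nuclear-encoded partners. In ATP synthase, the median log2 fold change of the 15 partners was −0.22, with 4 higher and 11 lower, whereas quantile normalization gave 7 higher and 8 lower with a median of −0.01. ATP5F1B, the catalytic beta subunit, was at 866, 854 and 892 TPM in control and at 665, 659.5 and 664 TPM in knockdown replicates 1, 2 and 3. The spread within each group was small beside the difference, and the adjusted p was above the threshold (log2 fold change −0.39, standard error 0.11, limma adjusted p = 0.124). ATP5PO, of the stalk, had means of 428 and 339 TPM (log2 fold change −0.34), and ATP5MC1, of the membrane ring, 308 and 185 TPM (−0.74).

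Of the 7 core partners in complex I, 1 was higher and 6 lower, and 4 were higher and 3 lower under quantile normalization. NDUFS3 had means of 88.2 and 73.8 TPM, without overlap, and NDUFS1 of 74.5 and 63.3 TPM. Of 4 in complex III, 1 was higher and 3 lower, and 3 higher and 1 lower under quantile normalization. CYC1, cytochrome c1, was at 170.3, 319 and 303 TPM in control and at 115, 157 and 181 TPM in knockdown libraries (log2 fold change −0.78, limma adjusted p = 0.212), while UQCRC2 (0.19) and UQCRFS1 (−0.09) differed less. Of 10 in complex IV, 6 were higher and 4 lower, and COX7A2 (−0.34) and COX5A (0.23) were without overlap in opposite directions, while COX8A (−0.55) overlapped. Mitochondrial and nuclear partners were not tested against each other, because the subunits of a complex are not replicates.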

How the data were processed

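RNA from 3 control and 3 RAB30-DT knockdown libraries was poly-T selected, fragmented and sequenced. The authors trimmed reads with fastp, aligned them, quantified genes with RSEM and deposited gene-level TPM with 2 decimals. The methods name STAR and GENCODE Release 45, whereas the submitters' processing notes name HISAT2 2.0.5 and hg38. All 62700 identifiers matched Release 44, the source here of names, positions on hg38, lengths and GC content. The strand setting of the quantification and the handling of multi-mapped reads are not given in the sources used here.

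TPM were analysed as log2(TPM + 1), with fold changes on that scale, in R 4.3.3 with limma 3.58.1 (lmFit, eBayes with trend, 2-sided) for 14020 genes that reached 1 TPM on average, and Benjamini-Hochberg adjustment over them. Calls were made at an adjusted p under 0.05. Shares and ratios were compared by exact two-sided permutation tests over libraries in Python 3.11.15. The limma fit was tested on simulated data, and the exact permutation and sign-flip tests on short made-up sets of values with a known p. Genes were named by rule: all members, nuclear copies that reached 1 TPM on average, and the 3 genes with the smallest p in each nuclear list. One gene that this rule names is not reported here. The members and lists were chosen with earlier results of these data known. Deviations of same-numbered libraries correlated at 0.410, 0.0359 and 0.279, and nothing states that the numbers mark a shared culture, so they were not taken as pairs. Alternatives were other pseudocounts (0.1 and 5), filters, scalings, eBayes settings, arrayWeights, a replicate block, removal of the GC trend (loess, span 0.3), addition of nuclear copies, and each library left out. Ratios and RNAs said to be chosen after the values were seen were added later.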

Additional observations from a re-analysis of the deposited data

How the results depend on the processing

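No alternative called a mitochondrial gene except the following. The count of members called, 0 in the reported fit, was 6 with arrayWeights (MT-RNR2, MT-ND6, MT-CO3, MT-ATP8, MT-ND1 and MT-ND2), 1 with the replicate block, 1 with the GC trend removed, and 0 to 1 with single libraries left out, the 1 being without control replicate 1. In the last 3 the gene was MT-RNR2, with a limma adjusted p of 0.0228 and a log2 fold change of 0.74 under the replicate block. The count of nuclear list genes called, also 0, was 20 with arrayWeights, 3 with the replicate block, 6 with the GC trend removed and 0 to 2 with single libraries left out. Over all genes, the 146 calls became 3218 with arrayWeights, 861 with the replicate block, 1140 with the GC trend removed, 13 without a filter on low values, and 12 to 489 with single libraries left out. arrayWeights gave control replicate 2 and knockdown replicate 2 weights of 3.00 and 4.39 and the others at most 0.948, so that fit rests mainly on 2 libraries. The cause was not tested. The 3 list genes called with the replicate block were MGME1 (adjusted p = 0.0262 from limma), CYC1 (0.0308) and ATP5MC1 (0.0245), and it changed no other call among the named genes.

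Log2 fold changes that changed sign were small. Under quantile normalization these were MT-CYB (−0.22), MT-ND2 (−0.10), MT-ND4 (−0.18), MT-ND1 (−0.11), MT-ND4L (−0.23), UQCRFS1 (0.019), MTATP6P1 (0.051) and MTCO1P12 (0.14). Under arrayWeights they were MT-ND5 (0.019), MT-ATP6 (0.057), MTATP6P1 (0.23) and MTND4P12 (0.25). MTCO1P12, at −0.00019 in the reported fit, was at 0.037 with median-of-ratios scaling and at 0.0037 with TPM rescaled without mitochondrially encoded genes, and MTND4P12 was at 0.0075 with a pseudocount of 0.1. With single libraries left out, the ranges that crossed 0 were −0.15 to 0.013 for MT-ATP6, −0.10 to 0.18 for MT-CO1, −0.048 to 0.21 for MT-CO2, −0.016 to 0.18 for MT-CYB, −0.086 to 0.15 for MT-ND4, −0.16 to 0.31 for MT-ND4L, −0.18 to 0.046 for MT-ND5, −0.12 to 0.10 for MTCO1P12 and −0.33 to 0.37 for MTND4P12. The difference in the share of total TPM ran from −0.42 to 0.76 percentage points and that of the 13 mRNAs from −0.55 to 0.49. The log2 ratio of MT-ND4L to MT-ND4 differed by −0.10 to 0.16. The shares in the mRNA pool differed by −0.78 to 0.77 percentage points for MT-CO1, −0.11 to 0.34 for MT-ND4 and −0.61 to 0.97 for MT-ND4L. MT-RNR2, MT-RNR1, MT-CO3, MT-ND3, MT-ND6 and MT-ATP8 kept the sign of their log2 fold change in all 19 fits. Depth is unknown, so the limit it sets on these values could not be given.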
